A study of Mus musculus with 6 samples.

Results

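The lysosomal cathepsins Ctsl, Ctsd and Ctsb are described here in 6 single mouse brain cells. The cDNA molecules of these cells, tagged with a unique molecular identifier (UMI), had been read from end to end. A transcript below is 1 such molecule, and many did not reach the 5′ end of their gene. The members were all transcripts assigned to the 3 genes, out of 6357 genes with at least 1 transcript, and the genes had been picked with their counts in these cells known, so all values below are descriptions and carry no test. The table assigned 182 of 36659 transcripts to them, and 181 of these aligned within the gene. Ctsl held 166 of the transcripts, Ctsd 14 and Ctsb 1.

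Cathepsins are proteases that break down proteins in the acid lumen of the lysosome. Ctsl and Ctsb encode cysteine proteases and Ctsd an aspartic protease. Each is made as an inactive proenzyme, enters the secretory pathway, is marked with mannose 6-phosphate in the Golgi, is carried by sorting receptors to the endosome and is activated there as the pH falls. Fibroblast-like cells are known to secrete part of their procathepsin L. In oligodendrocytes, lysosomes take part in the turnover and storage of myelin proteins and lipids.

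The cells came from CD-1 mouse brain at a stage that the labels give as embryo, with no treatment or genotype named. The study names hippocampus and cortex as their source. The embryo label was not checked against the mature, myelinating stage that the study gives for Oligo5. VLMC-1 and VLMC-2 are labelled as oligodendrocyte progenitors, and the study calls them vascular and leptomeningeal cells. Oligo1-1 and Oligo1-2 were immature and Oligo5-1 and Oligo5-2 mature oligodendrocytes. No label names an animal, so a cell type was 1 sample with 2 cells, and every interval below covers counting error only. All 10 VLMC marker genes were detected in the VLMCs, at 4.41% and 5.33% of their transcripts, and none in the 4 oligodendrocytes. The 10 oligodendrocyte markers made up 9.98% to 14.9% of the oligodendrocytes and were at 0 in both VLMCs, where the progenitor gene Pdgfra had 5 and 3 transcripts and Olig1 and Olig2 had none. Of 12 genes of microglia and macrophages, cells rich in cathepsins, only Tyrobp was seen, as 1 transcript in VLMC-2. Endothelial and pericyte genes made up 0.47% of VLMC-1 and 0.746% of VLMC-2, all of it Vtn (11 and 35 transcripts). Oligo5-1 held 1 transcript each of Cldn5 and Kdr. Astrocyte genes made up 0.214% and 0.448% of the VLMCs, with 1 and 21 transcripts of Slc1a3 and 4 and 0 of Gja1. Among the oligodendrocytes, Oligo5-1 held 4 transcripts of Slc1a3 and Oligo1-1 held 3 of Aldoc. Neuron genes were seen in Oligo5-2 alone, with 32 transcripts.

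Depth ran from 2338 transcripts in VLMC-1 to 11483 in Oligo1-1, the other 4 cells holding 4689 to 6211. The cells also differed in how often a transcript reached the 5′ end of its gene. Over all genes other than Ctsl, 12.3% of transcripts in Oligo1-2 and 19.9% in Oligo5-1 covered an annotated first exon, against 37.6% to 49.5% in the other 4. These 2 libraries therefore stood apart at the 5′ end before any cathepsin was looked at.

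Ctsl was abundant in the immature oligodendrocytes and in 1 of the 2 VLMCs, and near the detection limit in the mature oligodendrocytes. VLMC-1 held 5 Ctsl transcripts, 0.214% of the cell (95% exact interval 0.0695 to 0.498). VLMC-2 held 44, or 0.938% (0.683 to 1.26). Oligo1-1 held 64, or 0.557% (0.429 to 0.711). The other immature cell, Oligo1-2, was close to that, with 48 transcripts or 0.794% (0.586 to 1.05). Oligo5-1 and Oligo5-2 held 2 and 3, which is 0.0339% (0.00411 to 0.123) and 0.0483% (0.00996 to 0.141).

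**Figure D1:**
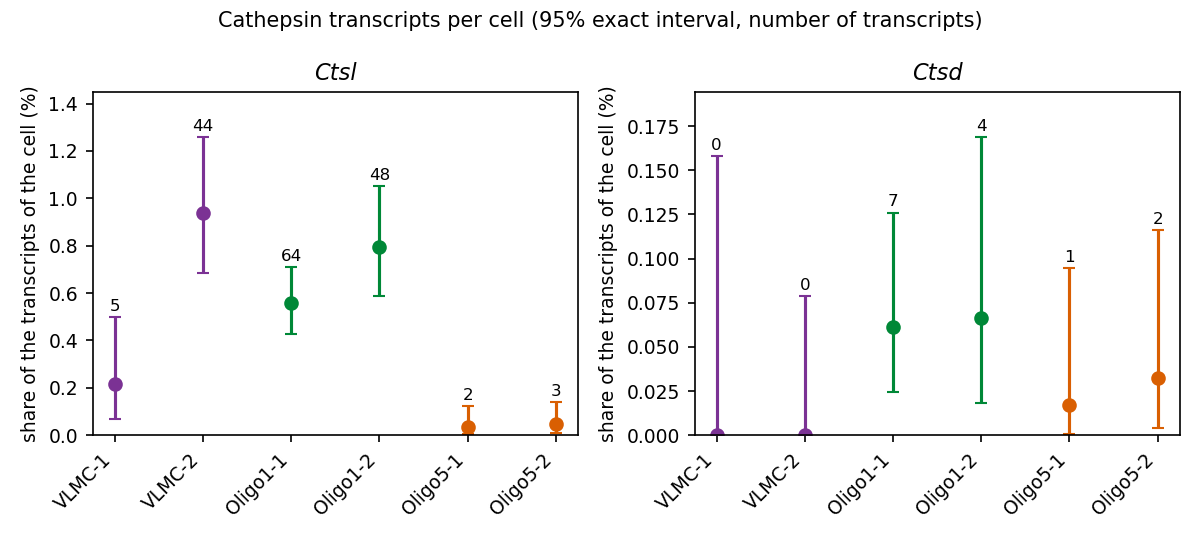
Share of the transcripts of each cell (y axis, percent) assigned to Ctsl (left) and Ctsd (right) in the 6 cells (x axis). Points are shares, bars are 95% exact binomial intervals for counting error, and the numbers are transcripts. For Ctsl both mature cells lie at 0.0483% or lower and the immature cells at 0.557% and 0.794%, while the VLMCs lie on both sides of 0.557%.

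From the highest to the lowest share the order was VLMC-2, Oligo1-2, Oligo1-1, VLMC-1, Oligo5-2 and Oligo5-1. Neighbours at the top did not differ beyond counting error, since VLMC-2 was 1.18 times Oligo1-2 (0.767 to 1.82) and Oligo1-2 was 1.43 times Oligo1-1 (0.959 to 2.1). Oligo1-1 was 2.61 times VLMC-1 (1.06 to 8.3). VLMC-1 was 4.43 times Oligo5-2, with an interval of 0.861 to 28.5 that holds 1, and the 2 mature cells did not differ either (1.42, 0.163 to 17.0).

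Between VLMCs and oligodendrocytes the difference in Ctsl was smaller than the spread among cells of 1 type. The mean share was 0.576% in the 2 VLMCs and 0.358% in the 4 oligodendrocytes, a ratio of 1.61 (1.77 with summed transcripts, interval 1.24 to 2.49), and the groups overlapped. VLMC-2 alone was 4.39 times VLMC-1 (1.74 to 14.2). Of the astrocyte genes, Slc1a3 was also higher in VLMC-2 (21 transcripts against 1), while Gja1 was seen in VLMC-1 alone (4 transcripts). The part of other cell types in the difference between the VLMCs was not tested. Without VLMC-2 the ratio of VLMCs to oligodendrocytes turned to 0.597, and without VLMC-1 it was 2.62. A 2-fold higher share in VLMCs was met by 19.9% of the 669 genes with 10 or more transcripts, and Ctsl was not among them.

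Immature and mature oligodendrocytes did not overlap in Ctsl, which 28.7% of the 669 genes also showed in the direction of Oligo1. The mean share was 0.676% in Oligo1 and 0.0411% in Oligo5, a ratio of 16.4 (15.5 with summed transcripts, interval 6.44 to 48.6). Such a pattern, 2-fold or more higher in Oligo1 with no overlap, was shown by 24.5% of the 669 genes. At least 5 of the 669 had a larger ratio than Ctsl, since genes at 0 in Oligo5 entered at the limit of 3 transcripts. The ratio was 13.6 without Oligo1-2 and 14.0 without Oligo5-1, the 2 cells with few 5′ ends. Among transcripts that covered their first exon it was 25.4, resting on 3 Ctsl transcripts in Oligo5-2 and none in Oligo5-1. Each Oligo5 value rests on 2 or 3 molecules.

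The genes most like Ctsl over the 6 cells, by Pearson correlation of log2(transcripts per 10000 + 1) among 125 genes with 30 or more transcripts, were Plat (0.844), Marcks (0.781), Gnb4 (0.715), Rap2a (0.676) and H3f3b (0.642). Plat encodes tissue plasminogen activator, a secreted protease, and Marcks a membrane-bound substrate of protein kinase C. Gnb4 encodes a G protein beta subunit, Rap2a a small GTPase and H3f3b a histone. Plat had 35 and 13 transcripts in the immature cells, 0 and 3 in the mature cells, and 5 and 8 in the VLMCs. Marcks had 61 and 37 in the immature cells, 0 and 2 in the mature ones, and 8 and 4 in the VLMCs, where VLMC-1 had the higher share (0.342% against 0.0853%) and the reverse held for Ctsl. All 6 points share 1 library each, so the values describe likeness and nothing more.

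Ctsl (ENSMUSG00000021477.9) lies on the minus strand of chromosome 13 at 64359337 to 64370890 of GRCm38. The annotated transcript used as model has 8 exons and 1971 bp, from 64370306 down to 64363214. The annotated gene extends beyond this model on both sides, so the annotated start and end named below are those of the model only. Exons are numbered here from the 5′ end. Exon 1 (71 bp) is untranslated, the start codon lies in exon 2, and exon 8 (987 bp) holds the last 100 coding bases and the whole 3′ untranslated region. Ctsl transcripts matched this model closely, as 901 of 913 splice junctions (98.7%) lay within 1 bp of an annotated one.

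Most Ctsl transcripts in VLMC-1, VLMC-2, Oligo1-1 and Oligo5-2 held all 8 exons. The first exon was covered by 116 of 166 transcripts (69.9%, 62.3 to 76.7). The share was 4 of 5 in VLMC-1, 40 of 44 in VLMC-2 (90.9%, 78.3 to 97.5) and 58 of 64 in Oligo1-1 (90.6%, 80.7 to 96.5). In Oligo1-2 it was 11 of 48 (22.9%, 12.0 to 37.3). Neither transcript of Oligo5-1 and all 3 of Oligo5-2 reached exon 1. Leaving out Oligo1-2 gave 105 of 118 (89.0%, 81.9 to 94.0).

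The Oligo1-2 transcripts without exon 1 began throughout the gene. Their 5′ ends lay in exon 2 in 6 transcripts, exon 3 in 2, exon 4 in 4, exon 5 in 3, exon 6 in 9, exon 7 in 6 and exon 8 in 7. The median 5′ end in Oligo1-2 lay 656 bp into the spliced transcript, against 0 bp in VLMC-2, Oligo1-1 and Oligo5-2 and 14 bp in VLMC-1. Both Oligo5-1 transcripts began in exon 8, 1048 and 1049 bp in. The first-exon share of Ctsl was above that of all other genes, given above, beyond counting error in VLMC-2 and Oligo1-1. In the other 4 cells its interval held the value of the other genes. The rules were unlike, as only the first exon of the model counted for Ctsl and that of any RefSeq transcript for other genes. Transcript length was not matched either.

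**Figure D2:**
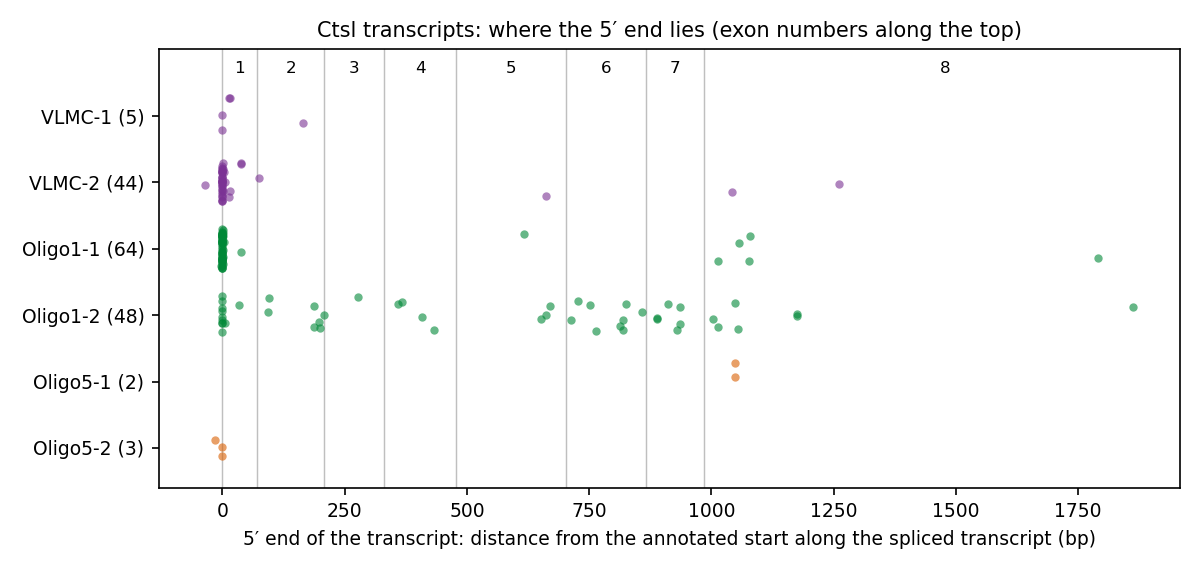
Position of the 5′ end of each Ctsl transcript along the spliced model (x axis, bp from the annotated start) in each cell (y axis, number of transcripts in brackets); each point is a transcript, grey lines are exon borders and the numbers on top are exons. Points of VLMC-2 and Oligo1-1 pile up at 0 bp, and those of Oligo1-2 run from 0 bp to 1863 bp.

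The cDNA had been read in 2 runs, the later of which was enriched for long molecules. Transcripts seen only in the short run covered exon 1 in 32 of 72 cases (44.4%, 32.7 to 56.6), those seen only in the long run in 52 of 58 (89.7%, 78.8 to 96.1), and those seen in both in 32 of 36 (88.9%). The cells differed within each run too. In the short run 14 of 20 Oligo1-1 transcripts and 5 of 33 Oligo1-2 transcripts covered exon 1, and in the long run it was 28 of 28 and 5 of 11.

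Ctsl had 1 dominant start site. Among the 116 transcripts that covered exon 1, starts joined within 5 bp gave 5 sites. The main site (64370301 to 64370309) held 106 of them (91.4%, 84.7 to 95.8), and 89 began at exactly 64370306, the annotated start of the model. By cell it held 2 of 4 in VLMC-1, 35 of 40 in VLMC-2, 57 of 58 in Oligo1-1, 10 of 11 in Oligo1-2 and 2 of 3 in Oligo5-2. The sequence around it is shown because it places the first transcribed base, in capitals.
Ctsl main start, chr13:64370292-64370321, minus strand, GRCm38: cggcgctgttcctccAgattctcggacctc

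The other starts were few and within 37 bp of the main one. A site 15 bp downstream (64370291) had 4 transcripts, 2 in each VLMC and none in an oligodendrocyte. A site 37 bp downstream (64370269) had 4 transcripts, 2 in VLMC-2 and 1 in each immature cell. Single transcripts began 16 bp upstream in Oligo5-2 and 35 bp upstream in VLMC-2. All of these starts lay in or before the untranslated exon 1. A separate RefSeq start at 64370520 was used by no transcript.

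Most Ctsl transcripts ended far short of the 3′ end of the model. Over all 166 transcripts, ends joined within 5 bp gave 10 sites, and the main site, most often at 64363798, held 134 (80.7%, 73.9 to 86.4). It lies in exon 8, 584 bp before the annotated end at 64363214, and leaves 300 bp after the stop codon where the model has 884 bp. Every cell used it most. It held 34 of 44 transcripts in VLMC-2 (77.3%), 50 of 64 in Oligo1-1 (78.1%) and 40 of 48 in Oligo1-2 (83.3%), and all 5, 2 and 3 in VLMC-1, Oligo5-1 and Oligo5-2. Of the 37 Oligo1-2 transcripts that did not cover exon 1, 32 ended there too.

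The end sites are shown with their last 30 bases, and capitals mark a polyadenylation signal hexamer (AATAAA, searched on the transcribed strand only).
Ctsl main end, chr13:64363798-64363827, minus strand: ttaaaAATAAAttttagctcagtgtgtgtg
Ctsl distal end, chr13:64362741-64362770, minus strand: ggaatgacaaaaaaataaatgAATAAAtac
Ctsl annotated end, chr13:64363214-64363243, minus strand: gggctaagataaacatgtaatgttataccc
Ctsd end, chr7:142375917-142375946, minus strand: gaaatacaAATAAAgttgttttgggccttg
The hexamer began 25 bases before the main Ctsl end and 22 bases before the Ctsd end. At the distal Ctsl end the last copy began 9 bases before the end and an earlier copy, in lower case, stands in the same 30 bases. Neither AATAAA nor ATTAAA stood in the last 40 bases before the annotated Ctsl end. For scale, 56.1% of 28425 annotated coding transcripts have AATAAA in their last 40 bases, and 2.11% have it in a window of the same length further upstream. Of the 20 genomic bases after the main end, where a run of A could prime reverse transcription inside an RNA, 3 were A.

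The remaining Ctsl ends fell on both sides of the main one. Sites at 64363817 and 64363901, which leave 281 and 197 bp of 3′ untranslated region, had 7 transcripts each, and 5 and 4 of those were in VLMC-2. A site at 64363839 had 4 transcripts, 2 in each immature oligodendrocyte. At 64363817 the AATAAA made up the last 6 bases, and neither hexamer stood in the last 40 bases at 64363839 or 64363901. Of the 20 genomic bases after these ends, 2 were A at 64363817 and 7 at both 64363839 and 64363901. Whether these ends are polyadenylation sites was not tested. The annotated end had 4 transcripts, of which 1 was in VLMC-2, 2 in Oligo1-1 and 1 in Oligo1-2. Beyond it, a distal site at 64362741 had 5 transcripts, 3 in Oligo1-1 and 2 in Oligo1-2, with 1357 bp after the stop codon if read without a gap. No VLMC or mature transcript ended there, but with 49 and 5 Ctsl transcripts such a site, at 3.01% of the total, could be missed.

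**Figure D3:**
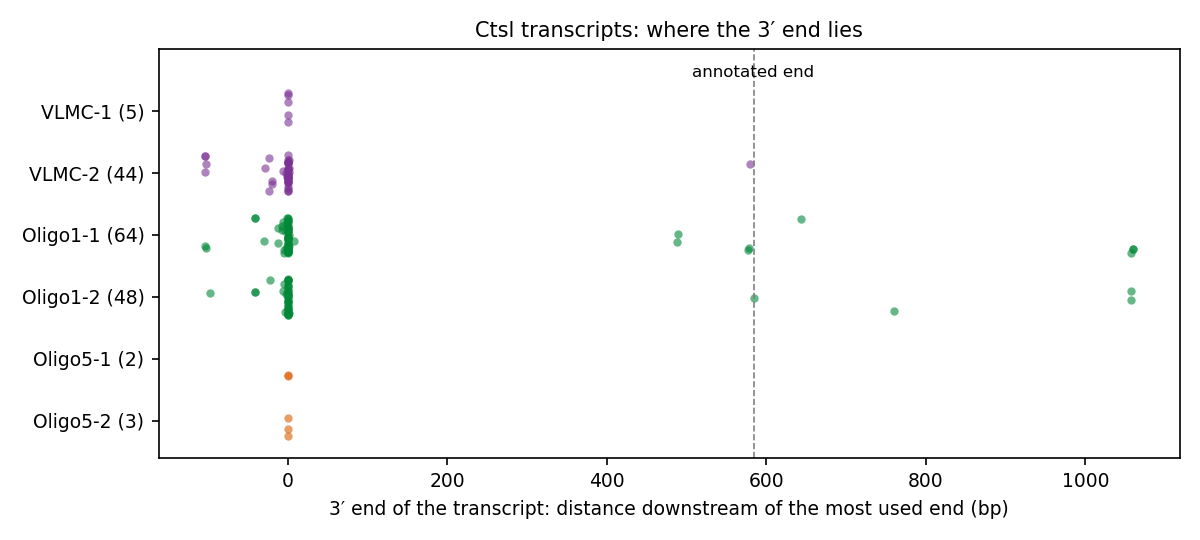
Position of the 3′ end of each Ctsl transcript (x axis, bp downstream of the most used end) in each cell (y axis, number of transcripts in brackets); each point is a transcript and the dashed line is the annotated end, 584 bp downstream. In all 6 cells most points lie at 0 bp, and the points farthest downstream, past the dashed line, belong to Oligo1-1 and Oligo1-2.

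The long ends carried a gap in a stretch that the model does not cover. All 6 Ctsl transcripts that ran past it, 3 in Oligo1-1 and 3 in Oligo1-2, lacked the same 86 bp beyond the end of the model (64363070 to 64363155, within 1 bp), and none held it. They came from both runs and remained 6 after near-identical UMIs were merged. The missing stretch opened with TC and closed with GT, not with GT and AG as a standard intron does. The edges are shown with the 1 base they share in capitals. As aligned, the missing stretch begins at the capital of the first line and ends just before the capital of the second.
Ctsl upstream edge, chr13:64363141-64363170, minus strand: acatgagtaaatcgcTcagcacaggagtct
Ctsl downstream edge, chr13:64363055-64363084, minus strand: taaaattatttttgtTactactttataact
Whether the CD-1 genome holds these 86 bp was not tested.

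Missing inner exons and intron retention were rare in Ctsl and confined to 1 cell each. Introns 3 (109 bp) and 7 (1004 bp) were both kept in 4 transcripts of VLMC-2, 8 reads in all, from both runs. No transcript kept only 1 of them, and no other intron was kept. They made up 4 of the 41 VLMC-2 transcripts that cross intron 3 (9.76%, 2.72 to 23.1). Oligo1-1 had 0 of 58 (exact interval 0 to 6.16%), and the intervals overlapped. Merging near-identical UMIs left 3 transcripts.

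Exons 3 to 7 were missing from 2 Ctsl transcripts, both in Oligo1-2. Exon 2 was joined to exon 8 at 64369067 and 64364134, inside both exons, so 881 bases of the spliced transcript were gone. As aligned, the missing stretch opened with CA and closed with GG, not with GT and AG. Whether splicing made this junction was not tested. The 2 edges share 4 bases, shown in capitals because the exact break cannot be placed within them.
Ctsl exon 2 edge, chr13:64369052-64369081, minus strand: tttagtgcagaGTGGcaccagtggaagtcc
Ctsl exon 8 edge, chr13:64364120-64364149, minus strand: ggacaaccactGTGGacttgccaccgcggc
Each had 1 read, and their UMIs differed by 1 base, so they count as 1 molecule when such UMIs are merged.

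The major Ctsl isoform was the same, or joint first, in all 5 cells with transcripts that covered exon 1. An isoform was defined by its junctions (within 1 bp), start and end (within 5 bp). Over 116 transcripts there were 19 isoforms, of which isoform 1, with all 8 exons, the main start and the main end, held 75 (64.7%, 55.2 to 73.3). It held 2 of 4 transcripts in VLMC-1, 21 of 40 in VLMC-2 (52.5%, 36.1 to 68.5), 45 of 58 in Oligo1-1 (77.6%, 64.7 to 87.5), 5 of 11 in Oligo1-2 (45.5%, 16.7 to 76.6) and 2 of 3 in Oligo5-2. In VLMC-1 isoform 7, which starts 15 bp downstream, had 2 transcripts as well.

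The other isoforms differed from isoform 1 mainly at the ends. Isoforms 2, 3 and 5, with 6, 5 and 4 transcripts, ended before the main end. Isoforms 6 and 7, with 3 each, started 37 and 15 bp downstream, isoform 8 ended at the annotated end and isoform 9 ended 95 bp before it. As aligned, only isoform 4 (introns 3 and 7 kept) and isoform 10 (exons 3 to 7 missing) changed the coding sequence with more than 1 transcript. The junction of isoform 10 lacked GT and AG, as given above. The 7 isoforms found in 2 or more cells held 99 of the 116 transcripts, and 9 isoforms had a single transcript. VLMC-2 had 10 isoforms and Oligo1-1 had 11. At an equal draw of 11 transcripts the expected number was 5.07 in VLMC-2, 3.37 in Oligo1-1 and 5.0 in Oligo1-2.

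**Figure D4:**
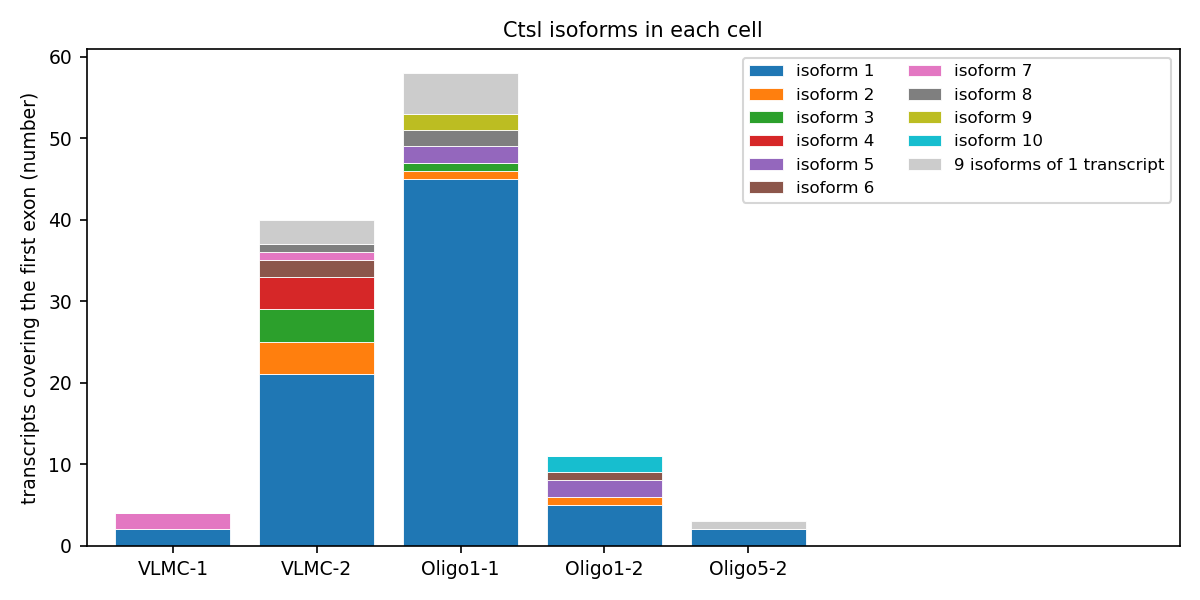
Number of Ctsl transcripts covering the first exon (y axis) in the 5 cells that had any (x axis), stacked by isoform; isoforms with 1 transcript are grey. Isoform 1 (blue) is the largest or joint largest part of each bar, with 21 of 40 in VLMC-2 and 45 of 58 in Oligo1-1.

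The count of Ctsl molecules depended on how UMIs are read. The UMI has 6 bases, and merging UMIs of Ctsl in 1 cell that differed by 1 substitution or a shift of 1 base took 166 transcripts to 107 (4, 27, 36, 36, 1 and 3 from VLMC-1 to Oligo5-2). When the exon structure and both ends also had to match, 133 were left. Different molecules can carry near-identical UMIs too. The most frequent isoform held 69.0% of the transcripts that covered exon 1 after the first merge and 66.7% after the second.

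Ctsd was seen in the oligodendrocytes at low counts. Oligo1-1 held 7 transcripts (0.061% of the cell, 0.0245 to 0.126), Oligo1-2 held 4 (0.0662%, 0.018 to 0.169), Oligo5-1 held 1 (0.017%) and Oligo5-2 held 2 (0.0322%). Both VLMCs were at 0, which with 2338 and 4689 transcripts allows shares up to 0.128% and 0.064% by the 3-count limit (upper ends of the exact intervals 0.158% and 0.0786%). No overlap with a lower share in VLMCs was shown by 25.7% of the 669 genes. Over both VLMCs together the 3-count limit was 0.0427%, just below the mean share of 0.0441% in the oligodendrocytes. The interval of the ratio of VLMCs to oligodendrocytes ran from 0 to 1.27, so a lower share in VLMCs was not shown beyond counting error. Oligo1 was 2.59 times Oligo5 (2.53 with summed transcripts, 0.669 to 14.1). The groups did not overlap, which with a 2-fold higher share held for 24.5% of the 669 genes, and the interval holds 1.

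Ctsd (ENSMUSG00000007891.16) lies on the minus strand of chromosome 7 at 142375911 to 142388038, with 9 exons and 2127 bp in the model. All 14 transcripts ended at 1 site, most often at 142375917, 6 bp before the annotated end. The first exon was covered by 6 of 14 (42.9%, 17.7 to 71.1), 5 in Oligo1-1 and 1 in Oligo5-2. Their starts fell at 142387880 (3 transcripts), 142387827 (2) and 142387905 (1), all within exon 1 and upstream of the first coding base at 142387804. The start at 142387827 was also the RefSeq start.

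Ctsd had no isoform that stood out. The 6 transcripts that covered exon 1 made 4 isoforms, and 4 of the 6 transcripts had all 9 exons. The most frequent isoform in Oligo1-1, with 2 of 5 transcripts, joined exon 2 to exon 7 at 142385544 and 142377085, again inside both exons, and lacked 763 bases. As aligned, the missing stretch opened with CA and closed with CT, not with GT and AG, and whether splicing made this junction was not tested. Its edges share 3 bases, in capitals.
Ctsd exon 2 edge, chr7:142385529-142385558, minus strand: ggaagacctgatCCTcaaaggccccatcac
Ctsd exon 7 edge, chr7:142377071-142377100, minus strand: cttctggtggggCCTgtggaagaggtgaag
The UMIs of the 2 transcripts were shifted by 1 base against each other, and merging them left 1 molecule. Over all Ctsd transcripts 52 of 54 junctions (96.3%) were annotated, and these 2 were the rest.

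A further transcript assigned to Ctsd, with 11 reads in VLMC-1, did not lie in the gene. Its 14 blocks ran from 164839522 to 164856739, beyond the last base of Ctsd, and 13 block starts and 13 block ends equalled exon borders of Pltp, the phospholipid transfer protein gene on chromosome 2 (164839518 to 164857711, minus strand). It was left out of Ctsd, and counting it would have made it the only Ctsd transcript of a VLMC. Over all genes, 103 of 35031 transcripts (0.294%) lay outside the gene they were assigned to.

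Ctsb, a cysteine protease that also trims the ends of peptides, was seen once. The gene (ENSMUSG00000021939.8) lies on the plus strand of chromosome 14 at 63122462 to 63145923 and its model has 10 exons and 4743 bp. The transcript, 2 reads of the short run in Oligo1-1, was a single block of 485 bp at 63142645 to 63143129 within exon 10. It ended 2794 bp before the annotated end and covered no junction. At 0.00871% of Oligo1-1 (0.00022 to 0.0485), no order of the cells could be read from it.

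The other genes of the cathepsin pathway were low throughout, with 59 of 90 detected and 14 reaching 10 transcripts. Summed, the 90 genes made up 1.14% to 1.59% of each cell. Of the 14, 3 were 2-fold or more higher in VLMCs and 4 were 2-fold or more lower, where 19.9% and 23.8% of all 669 genes were. These counts turned on single cells, with 2 lower without VLMC-1, and 1 higher without Oligo1-2 or without Oligo5-1. Without VLMC-2 there were 0 lower, but that count was set largely by depth. A list gene at 0 in VLMC-1 was set to at most 3 transcripts, 0.128% of the cell, and could then not be called lower. The median log2 ratio of VLMCs to oligodendrocytes was -0.08 for the 14, against -0.06 for all 669 genes, with a group at 0 set to 3 transcripts over the group and never above the other group. Between Oligo1 and Oligo5, 2 were higher and 3 lower in Oligo1 (30.5% and 18.4% of all genes).

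Among other cathepsins only Ctso (7 transcripts), Ctsf and Ctsk (4 each) and Ctsh (2) were detected, of 11 in the list. Ctsk, known from osteoclasts and fibroblasts, had 2 transcripts in VLMC-1 and 2 in Oligo1-2. Ctsh had both transcripts in VLMC-2.

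Cst3, which encodes the secreted cysteine protease inhibitor cystatin C, had the largest ratio of VLMCs to oligodendrocytes among the 14 pathway genes with 10 or more transcripts. It had 7 and 7 transcripts in the VLMCs, 5 and 0 in the immature and 0 and 1 in the mature oligodendrocytes, and both VLMCs lay above all oligodendrocytes, as for 12.7% of the 669 genes. The mean share was 15.0 times higher in VLMCs (9.84 with summed transcripts, 3.55 to 31.2). Cstb, the cytosolic inhibitor cystatin B, was spread over all 6 cells with 1 or 2 transcripts in each. Lgmn, Psap and Gm2a, listed together under processing and activation, had 2, 1 and 2 transcripts in all.

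Of the sorting genes, M6pr, the cation-dependent mannose 6-phosphate receptor, had 6 transcripts in Oligo1-1 and 3 in Oligo5-2. Sort1 (sortilin) had 3 in VLMC-1, 4 in Oligo5-1 and 2 in Oligo5-2. Scarb2, the receptor that carries glucocerebrosidase, had 2 and 0 in the VLMCs, 7 and 2 in the immature and 2 and 0 in the mature cells. Gnptab, of the enzyme that adds the mannose 6-phosphate mark, had 1, 2, 1 and 1 in the oligodendrocytes and none in the VLMCs.

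The 32 other hydrolases and lumenal proteins summed to 0.214% and 0.192% of the VLMCs and 0.305% to 0.53% of the oligodendrocytes. Without Npc2, the list gene with the most transcripts, the groups overlapped (0.214% and 0.128% against 0.165% to 0.381%). Npc2, a cholesterol carrier of the lumen, had 0 and 3 transcripts in the VLMCs, 19 and 9 in the immature and 5 and 6 in the mature cells (ratio of VLMCs to oligodendrocytes 0.258, with summed transcripts 0.324, 0.0641 to 1.02). Ppt1, a depalmitoylating enzyme, had 15, all in oligodendrocytes, but the interval of its ratio, 0 to 1.18, holds 1. Lamp1 had 0 and 2 in the VLMCs against 13, 5, 9 and 6 (ratio 0.192, with summed transcripts 0.256, 0.0297 to 0.999). No overlap with a lower share in VLMCs held for both genes, as for 25.7% of the 669 genes. Lamp2 had 0 and 10 in the VLMCs against 13, 0, 2 and 4, and Cd63 had 5, all in VLMC-2. VLMC-1 had no transcript of any membrane protein in the list, at the lowest depth of the 6 cells.

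The proton pump that acidifies the lysosome, the V-ATPase, was the pathway list with the most genes reaching 10 transcripts, 8. Of its 17 subunit genes, 13 were detected. Its summed share was 0.299% to 0.39% in 5 cells and 0.869% in Oligo5-2, the cell that also held the neuron genes, whose part in this value was not tested. Atp6v1a, the catalytic subunit, was found in all 6 cells with 5, 5, 8, 6, 3 and 10 transcripts. The 3 pathway genes lower in Oligo1 than in Oligo5 were all of this group, which held 8 of the 14, where 18.4% of the 669 genes were lower. From Oligo1-1 to Oligo5-2, Atp6v0b had 4, 2, 4 and 9 transcripts (interval of the ratio 0.0994 to 0.899). Atp6ap2 had 1, 0, 3 and 8 (0.00146 to 0.432), and both were highest in Oligo5-2. Atp6v1d had 2, 0, 2 and 3, and its interval, 0.0263 to 1.69, holds 1. None of the 4 transcription factors of lysosomal genes, the TFEB family, was detected.

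**Figure D5:**
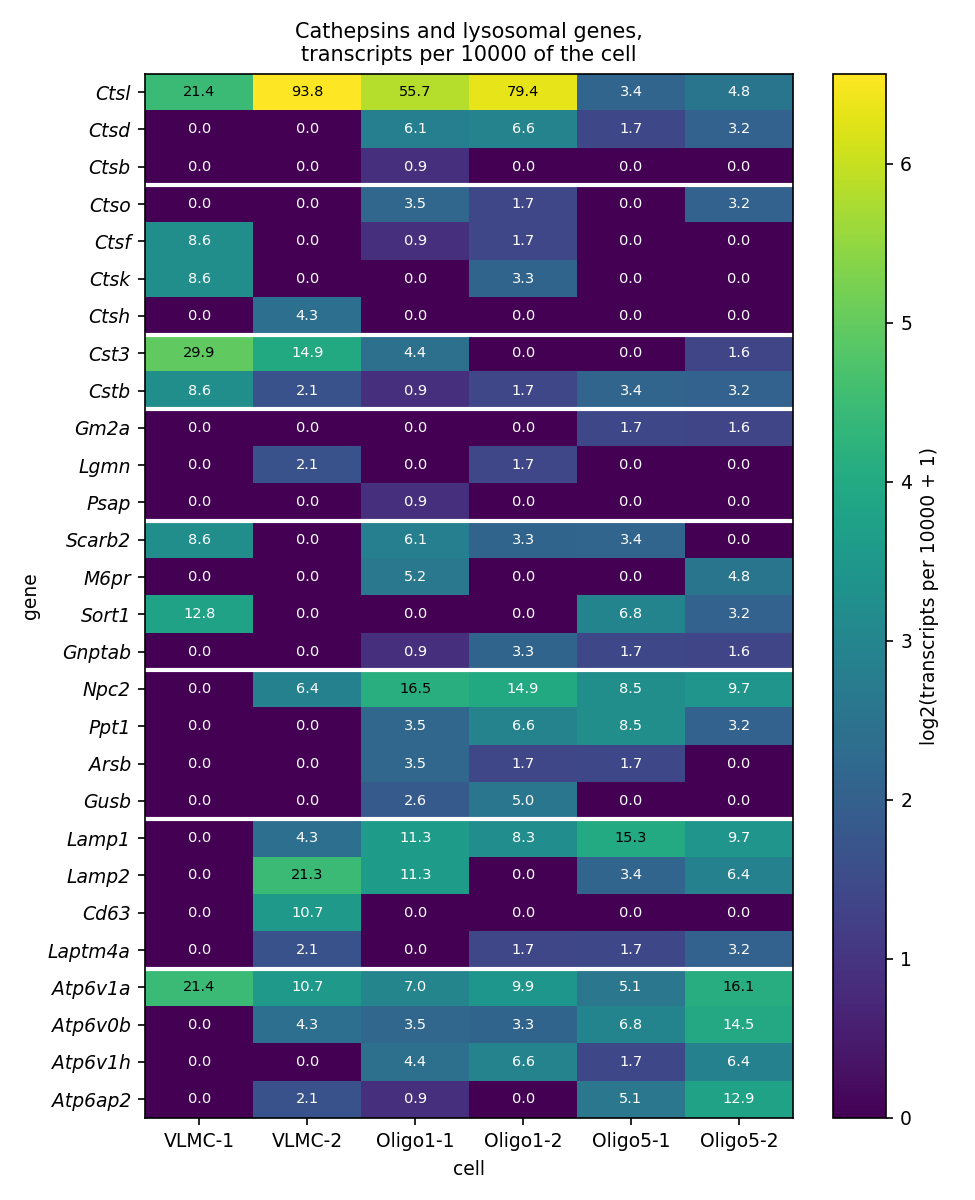
Transcripts per 10000 of the cell (numbers; colour is log2 of the value + 1) for the 3 cathepsins and up to 4 genes of each pathway list with the most transcripts (y axis) in the 6 cells (x axis); white lines part the lists. The Ctsl row holds 93.8 in VLMC-2, 55.7 and 79.4 in the immature cells and below 5 in the mature cells.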

How the data were processed

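Single cells were captured on a C1 chip and their polyA RNA was reverse transcribed with 6-base UMIs. Per the labels and the study's methods, the authors amplified the cDNA, read it on a PacBio instrument in 2 runs (P4/C2 and P6/C4 chemistry), split concatemers, aligned the reads to mm10 (the methods name GMAP, the submitters' notes GSNAP), kept unique alignments and merged reads of 1 UMI. The deposited table gives 1 transcript per line with its counts of reads (36659 transcripts, 73594 reads), gene, exons and block positions.

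Here a share is transcripts of a gene over all transcripts of the cell. The unit is the UMI, 1 cell type is 1 sample, and no test was made. Intervals are 95% exact binomial (Clopper-Pearson) or, for ratios of summed counts, exact conditional. They and the 3-count limit of a 0 cover counting error only. Block starts are 0-based in the table and were raised by 1, after which 97.9% of 967 inner starts equal GENCODE M21 exon starts. Junctions were joined within 1 bp and ends within 5 bp. Sequences are from GENCODE M21 transcripts (GRCm38). The RefSeq promoter table (GRCm38) held 2 of the 3 genes and gave start positions only. Tools were Python, pandas and scipy, checked on simulated data.

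The members, gene lists and markers were chosen with earlier results of these data known. Genes were named by rule: the 3 members, the 5 genes most like a member with 30 or more transcripts, and up to 4 genes with the most transcripts in each list. The comparison of Oligo1 with Oligo5, the second UMI merge and the transcript outside Ctsd were added after the data were seen. Alternatives covered the UMI rule, the run, each cell left out, the unit, the tolerances and the first-exon rule.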

Additional observations from a re-analysis of the deposited data

How the results depend on the processing

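No paired analysis was possible because a cell type was 1 sample and no test was made, and the cell numbers 1 and 2 pair nothing. Of 113 recomputed main values, 82 stayed within the counting interval or 1.5 times the count, 30 moved and 1 changed direction. Leaving out a cell took the Ctsl ratio of VLMCs to oligodendrocytes from 0.597 (without VLMC-2) to 2.7 (without Oligo1-2), the ratio of Oligo1 to Oligo5 from 13.6 to 19.9, the first-exon share from 56.9% to 89.0%, the share with all 8 exons from 54.9% to 89.0%, the main start from 84.5% to 93.4%, the main end from 79.7% to 82.4%, the number of isoforms from 13 to 19 and the major isoform from 51.7% to 71.1%. With UMIs read 2 or more times, the VLMC ratio was 1.23, isoforms numbered 11 and the major isoform held 76.6%. In the short run alone, the first exon was covered by 44.4%, all 8 exons were present in 41.7% and the major isoform held 46.9%. In the long run alone, both exon shares were 89.7% and the main end held 72.4%. Ends joined at 0 bp gave 76.7% for the main start, 35.5% for the main end, 52 isoforms and 24.1% for the major isoform. At 20 bp these were 100%, 88.0%, 11 and 81.0%. Without the first-exon rule, the main start held 63.9%, isoforms numbered 58 and the major isoform held 45.2%. Fewer transcripts or a wider tolerance set these counts by construction. The ratio of Oligo1 to Oligo5 was 12.8 or more in every alternative listed, up to 46.7 with UMIs read 2 or more times. The 46.7 rests on 1 Ctsl transcript of Oligo5-1, as the other there and all 3 in Oligo5-2 had been read once. The added UMI merge gave a ratio of 17.7. The number of pathway genes higher in VLMCs went from 3 to 7 with genes of 5 or more transcripts. It went to 0 with UMIs read 2 or more times. Over the cells left out it was 1 to 4 higher and 0 to 4 lower, the 0 lower being set largely by the depth of VLMC-1. Depth limits Ctsd, Ctsb and both mature cells to a few molecules each.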
